A study of Mus musculus with 12 samples.

Results

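Collagens are the main structural proteins of the extracellular matrix, and the genes described here are those that encode their chains. They were taken as every row of the deposited fetal liver table whose gene symbol starts with Col, a number, the letter a and a number. This rule found 44 of 30743 rows. Of these, 43 are collagen chains, and the remaining row, Col4a3bp, encodes a ceramide transfer protein that shares only the start of its symbol. It lay at 2.03 log2 CPM (counts per 1000000 reads) and was left out of all sums below.

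The samples were whole livers of male C57BL/6J fetuses at 15 ± 0.5 dpc, 6 from dams on a control diet (13.5 kcal% fat) and 6 from dams on a high-fat diet (HFD, 60 kcal% fat), each diet given for 12 to 14 weeks. PolyA-selected RNA was sequenced, and the study compared HFD with control. The values used here are 1 average log2 CPM per gene over all 12 livers, as deposited. Values of single livers and of the 2 diets were not analysed here, so the levels below describe the 12 livers pooled, carry no SD, and answer no question about diet.

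A collagen molecule is built from 3 chains that wind around each other, which requires a glycine to recur at a fixed spacing along the helical part (Gly-X-Y repeats). Fibrillar collagens form the fibrils that bear tension, network collagens form the sheets of basement membranes, FACIT collagens sit on fibril surfaces, and beaded filament, transmembrane and multiplexin collagens link matrix and cells. Chains are hydroxylated and folded in the endoplasmic reticulum, exported, trimmed by proteases and then cross-linked. In liver, collagen is made largely by stellate and other mesenchymal cells, with endothelial cells and hepatocytes also contributing. A whole liver holds all of these cells, and in bulk RNA fewer cells of a type and less RNA per cell cannot be told apart.

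The low end of the table sets how its values can be read. The lowest value, -2.71 log2 CPM, was that of rows without a read and was shared by 11091 rows (36.1%). The spacing above it gave a mean effective library of 13129752 reads, so that reads summed over the 12 livers could be recovered for each row, with about 158 reads for each CPM above the floor. Listed levels, and the threshold of 1 CPM used below, include the floor of 0.152 CPM. The exact 95% intervals given below are Poisson for read counts and conditional binomial for ratios. They cover counting error only and not the spread between livers or the error of recovering the reads. Genes that nearly every cell uses were not evenly represented: of 15 such genes, chosen after their values were seen, 11 lay above 1 CPM, among them Eef1a1 at 12.54, Eef2 at 11.89 and Actb at 11.33 log2 CPM. In contrast, Gapdh lay at 2.38 log2 CPM, Tbp held 77 reads, Gusb 25 and Ppia 2, and Alas1 was listed at the floor. A row therefore may not hold all reads of its gene. What each row counted is not given in the sources used here, a cause was not tested, and a low or absent value is reported only as the level listed for that row. For the collagen chains alone, the median number of transcripts in GENCODE M21 was 4 above 1 CPM and 4.5 for the others. Whether the number of transcripts bears on the listed levels was not tested, and the annotation behind the rows is not known.

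Of the 43 chains, 27 (62.8%) lay above 1 CPM, beside 33.1% of all rows. These levels were not divided by gene length, and all rows include the 36.1% without a read. The median chain lay at 1.31 log2 CPM (2.48 CPM), and the median row of the table at -2.17 log2 CPM (0.222 CPM). The chains ran from the floor (Col19a1) to 99.5% of the way up the ranked rows (Col3a1). There were 6 chains above 100 CPM, 5 between 10 and 100 CPM, 16 between 1 and 10 CPM and 16 at or under 1 CPM. Summed, the chains took 2270 CPM, or 0.227% of all reads, of which the fibrillar chains took 1908 CPM.

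**Figure D1:**
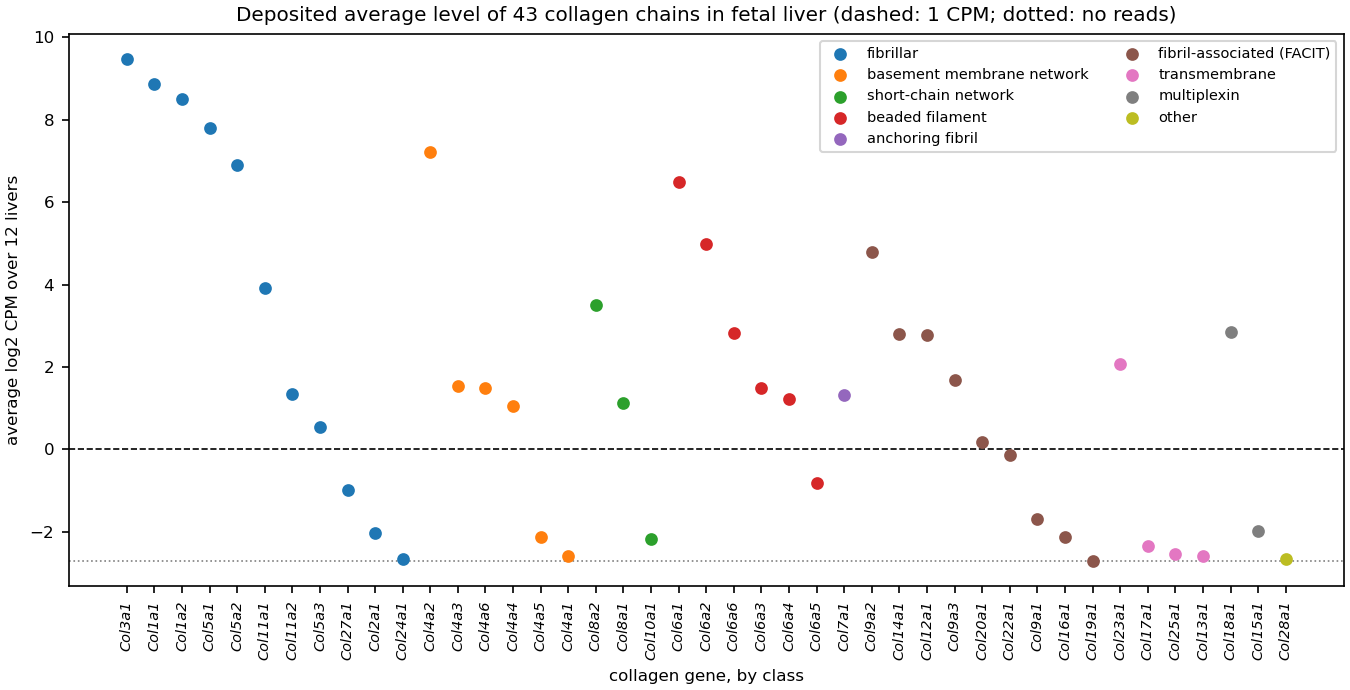
Average log2 CPM over the 12 livers (vertical axis) of each of the 43 collagen chains (horizontal axis), grouped and coloured by class, 1 point per gene and no error bars because values of single livers were not used. The dashed line is 1 CPM and the dotted line the value of rows without reads; fibrillar chains run from Col3a1 at 9.48 to Col24a1 at -2.66, and 16 chains lie under the dashed line.

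The sequence upstream of the start is shown for the highest chains whose 250 bases before the RefSeq start hold no annotated exon, Col3a1 and Col5a1. Both are on the plus strand, from the RefSeq promoter table on GRCm38, at chr1:45311288-45311537 for Col3a1 and chr2:27886175-27886424 for Col5a1. Capitals mark the motifs searched on both strands, which were the CCAAT box by those letters, the GC box by the letters GGGCGG and the TATA box by the letters TATAAA. No pair of matches overlaps in the windows shown.
Col3a1: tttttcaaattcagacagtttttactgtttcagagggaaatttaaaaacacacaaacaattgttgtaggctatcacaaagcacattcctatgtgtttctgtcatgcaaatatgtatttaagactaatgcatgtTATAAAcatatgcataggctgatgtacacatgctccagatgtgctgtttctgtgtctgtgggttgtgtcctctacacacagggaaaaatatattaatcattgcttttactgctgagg
Col5a1: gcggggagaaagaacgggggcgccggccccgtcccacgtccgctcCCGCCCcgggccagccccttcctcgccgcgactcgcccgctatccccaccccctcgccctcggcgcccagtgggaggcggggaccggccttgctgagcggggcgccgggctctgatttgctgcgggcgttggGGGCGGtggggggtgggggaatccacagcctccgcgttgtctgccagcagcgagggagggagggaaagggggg

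These abundant fibrillar genes thus had windows of different make. The Col3a1 window held a TATA box whose letters begin 117 bases before the start and neither of the other motifs. The Col5a1 window held GC boxes that begin 73 and 205 bases before the start, the latter on the opposite strand, and no TATA box. In all, 35 of the 43 chains had a window in the table. A GC box was found in 22 of the 38 windows of these chains, beside 32.7% of all 32851 windows. TATAAA was found in 5 of the 38 windows (Col3a1, Col10a1, Col11a2, Col13a1 and Col17a1), beside 12.4% of all windows, and CCAAT in 13 of 38, beside 33.9% of all windows. A match describes letters only and does not show that a factor binds there.

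Fibrillar collagens held the highest levels, with 8 of 11 chains above 1 CPM. Col3a1, the chain of type III collagen of soft and distensible tissues, was the highest of all chains at 9.48 log2 CPM (712 CPM; 112188 reads). The type I chains, which form the main fibril of bone, skin and scar, followed with Col1a1 at 8.87 (468 CPM) and Col1a2 at 8.51 log2 CPM (364 CPM). Type V collagen sits inside type I fibrils and sets their width. Its chain Col5a1 lay at 7.81 log2 CPM (225 CPM) and Col5a2 at 6.91 (120 CPM), while Col5a3, the remaining type V chain, lay at 0.54 log2 CPM (1.45 CPM). The type XI chains, close relatives of type V best known from cartilage, were lower, with Col11a1 at 3.91 and Col11a2 at 1.35 log2 CPM.

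The other 3 fibrillar chains lay under 1 CPM. Col27a1 was the highest of them at -0.98 log2 CPM (56 reads). Col2a1, the main collagen of cartilage, had 15 reads over the 12 livers (95% interval 8.40 to 24.7), and Col24a1 had 1 read. The fibrillar class thus held both the highest chain of the table and a chain at a single read.

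Per kilobase of exon, the scale on which levels of different genes can be set side by side, the order changed little at the top. Col3a1 had 72.5 CPM per kilobase and Col1a1 71.3, which differ little from each other under this length, whereas with coding length Col3a1 had 162 and Col1a1 107. Col1a2 followed at 29.3, Col5a1 at 26.5, Col4a2 at 22.3, Col6a1 at 20.5, Col5a2 at 12.6 and Col9a2 at 8.98 CPM per kilobase. Cumulative shares were computed with the union of exons only. The 3 highest chains took 62.1% of the summed CPM per kilobase of all chains, the 5 highest 79.6% and the 7 highest 91.4%. Fibrillar chains together took 76.7% of that sum, beaded filament chains 9.18%, basement membrane chains 8.29%, FACIT chains 4.13% and short-chain network chains 1.00%. Col4a2 alone gave 8.00% of the sum of all chains, and so nearly all of the basement membrane share. These are shares of the listed rows, which may not hold all reads of their genes, and the effect of such missing reads was not tested. The multiplexins took 0.365%, transmembrane chains 0.255% and the anchoring fibril chain 0.0810%.

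**Figure D2:**
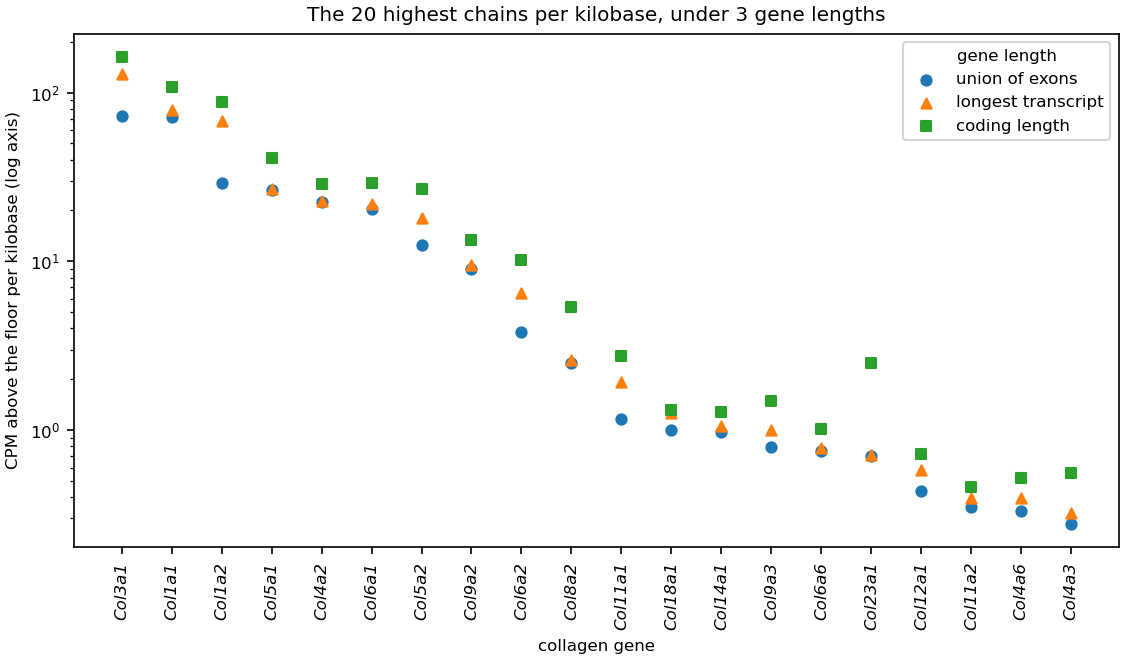
CPM above the floor per kilobase (vertical log axis) of the 20 highest chains (horizontal axis), 1 point for each of 3 gene lengths: the union of exons, the longest transcript and the coding length. Col3a1 is highest under each of the 3 lengths, and Col1a2 moves from 29.3 with the union of exons to 88.4 with coding length.

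Basement membrane chains differed widely within 1 class, with 4 of 6 above 1 CPM. Type IV collagen is the network that gives basement membranes their sheet, and its most widespread form combines the products of Col4a1 and Col4a2. Here Col4a2 lay at 7.21 log2 CPM (148 CPM; 23274 reads), but the Col4a1 row lay at -2.60 log2 CPM with 2 reads (95% interval 0.242 to 7.23). The chains of more restricted membranes, such as that of the kidney filter, were listed well below Col4a2. Col4a3 was at 1.55, Col4a6 at 1.48 and Col4a4 at 1.06 log2 CPM, while Col4a5 was at -2.13 log2 CPM with 12 reads (6.20 to 21.0).

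The type IV genes lie in head-to-head pairs in the genome (GENCODE M21, GRCm38). Col4a1 (chromosome 8, 11198423 to 11312826, minus strand) and Col4a2 (11312805 to 11449287, plus strand) overlap by 22 bases at their starts, and their listed levels were the farthest apart of the 3 pairs. Col4a6 (X, 141165403 to 141474076) and Col4a5 (X, 141475385 to 141689234) are 1308 bases apart and lay at 1.48 and -2.13 log2 CPM. Col4a4 (chromosome 1, 82448423 to 82586849) and Col4a3 (82586921 to 82722059) are 71 bases apart and had the closest levels of the 3 pairs, at 1.06 and 1.55 log2 CPM. The stretch between them is shown because it is the whole space between these divergent genes, chr1:82586850-82586920, read on the strand of Col4a4.
Between Col4a4 and Col4a3: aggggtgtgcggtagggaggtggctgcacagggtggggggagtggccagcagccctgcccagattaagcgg
It holds none of the 3 motifs. Reads in the 22 bases shared by Col4a1 and Col4a2 cannot be told apart without strand, and the part of this overlap in their levels was not tested.

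Other neighbouring chains also differed in level. Col3a1 and Col5a2 lie tail to tail on chromosome 1 with 24.6 kilobases between them and were both abundant (9.48 and 6.91 log2 CPM). Col6a2 and Col6a1 share a strand of chromosome 10, 85.2 kilobases apart, at 4.99 and 6.49 log2 CPM. Col6a6, Col6a5 and Col6a4 stand in a row on chromosome 9 with gaps of 27.9 and 28.8 kilobases, and the middle gene, at -0.82 log2 CPM, lay below the flanking ones at 2.82 and 1.23. Col9a1 and Col19a1, tail to tail on chromosome 1, both lay far under 1 CPM.

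Beaded filament and network collagens followed. Type VI collagen forms beaded filaments around cells, and 5 of its 6 chains were above 1 CPM. Col6a1 lay at 6.49 log2 CPM (89.97 CPM) and Col6a2 at 4.99 (31.8 CPM), while Col6a3, the large chain that joins them in the usual molecule, lay at 1.49 log2 CPM (2.81 CPM). Of the chains that can take the place of Col6a3, Col6a6 was highest at 2.82 log2 CPM, above Col6a3 itself, Col6a4 lay at 1.23 and Col6a5 at -0.82 log2 CPM (65 reads). Among the short-chain network collagens, Col8a2 lay at 3.51 and Col8a1 at 1.13 log2 CPM, whereas Col10a1, a chain of hypertrophic cartilage, had 11 reads (-2.17 log2 CPM). Col7a1, the anchoring fibril chain that ties skin epithelium to the dermis, lay at 1.31 log2 CPM.

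FACIT chains were mixed, with 5 of 9 above 1 CPM. Col9a2 led the class at 4.80 log2 CPM (27.9 CPM; 4378 reads), ahead of Col14a1 at 2.81, Col12a1 at 2.77, Col9a3 at 1.68 and Col20a1 at 0.19 log2 CPM. Type IX collagen decorates the type II fibrils of cartilage, but its remaining chain, Col9a1, had 25 reads (-1.70 log2 CPM) and Col2a1 15. Cartilage markers were measured beside it. Of the 6 matched markers, Hapln1 (1.99) and Sox9 (1.57 log2 CPM) lay above 1 CPM. Matn3 followed at -0.91 log2 CPM and Matn1 had 34 reads. Acan, the main cartilage proteoglycan, had 25 reads, and Cnmd was listed at the floor. The summed level of the 6 was 7.38 CPM above the floor, not divided by length, most of it from Hapln1 (3.82) and Sox9 (2.81 CPM). Sox9 is also on the list of cholangiocyte markers. The cells that gave the Col9a2 reads were not tested. Col22a1 was the highest FACIT chain under 1 CPM at -0.13 log2 CPM (120 reads), Col16a1 had 12 reads, and Col19a1 was the single chain listed at the floor (0 reads, upper limit 3.69).

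Of the remaining classes, Col18a1, a basement membrane multiplexin whose end fragment is endostatin, lay at 2.84 log2 CPM (7.19 CPM), and the other multiplexin, Col15a1, had 16 reads (-1.98 log2 CPM). Col23a1 lay at 2.06 log2 CPM and was the only transmembrane chain above 1 CPM. The other 3, Col17a1 of the epidermal hemidesmosome, Col25a1 and Col13a1, had 7, 3 and 2 reads. Col28a1 had 1 read. In all, 12 chains had between 1 and 29 reads over the 12 livers, and neighbours in their order had overlapping counting intervals. Col26a1, listed under its older symbol Emid2 and so outside the rule, also had 1 read.

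Chains of the same collagen type were then set side by side per kilobase, in 11 ratios (intervals of counting error). In each ratio the chain with the higher level per kilobase was placed first. Col1a1 stood at 2.44 times Col1a2 (2.41 to 2.47). Type I collagen joins 2 chains from Col1a1 with 1 from Col1a2, but the ratio depended on the gene length used, and was 1.16 with the longest transcript and 1.22 with coding length. Col5a1 stood at 2.11 times Col5a2 (2.07 to 2.15) and 139 times Col5a3 (121 to 160.0). Col4a3 stood at 1.53 times Col4a4 (1.32 to 1.78), Col4a6 at 29.3 times Col4a5 (16.6 to 57.1), and Col4a2 at 13160 times Col4a1 (3643 to 108700). Without subtraction of the floor the Col4a6 to Col4a5 ratio was 10.3 and the Col4a2 to Col4a1 ratio 1011.

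Partners in the fibril-associated and beaded filament types were also unequal. Col6a1 stood at 5.39 times Col6a2 (5.22 to 5.57), which became 2.86 with coding length, and at 92.4 times Col6a3 (83.9 to 102). Col9a2 stood at 11.3 times Col9a3 (10.3 to 12.5) and 292 times Col9a1 (198 to 452). Without subtraction of the floor the Col9a2 to Col9a1 ratio was 149. Col11a1 stood at 3.34 times Col11a2 (2.99 to 3.73), and at 5.96 times with coding length. None of the 33 values of these ratios under the 3 alternatives changed which partner was higher. Since constitutive genes were also listed near the floor, the partner with few reads in a ratio need not be low in the liver itself.

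**Figure D3:**
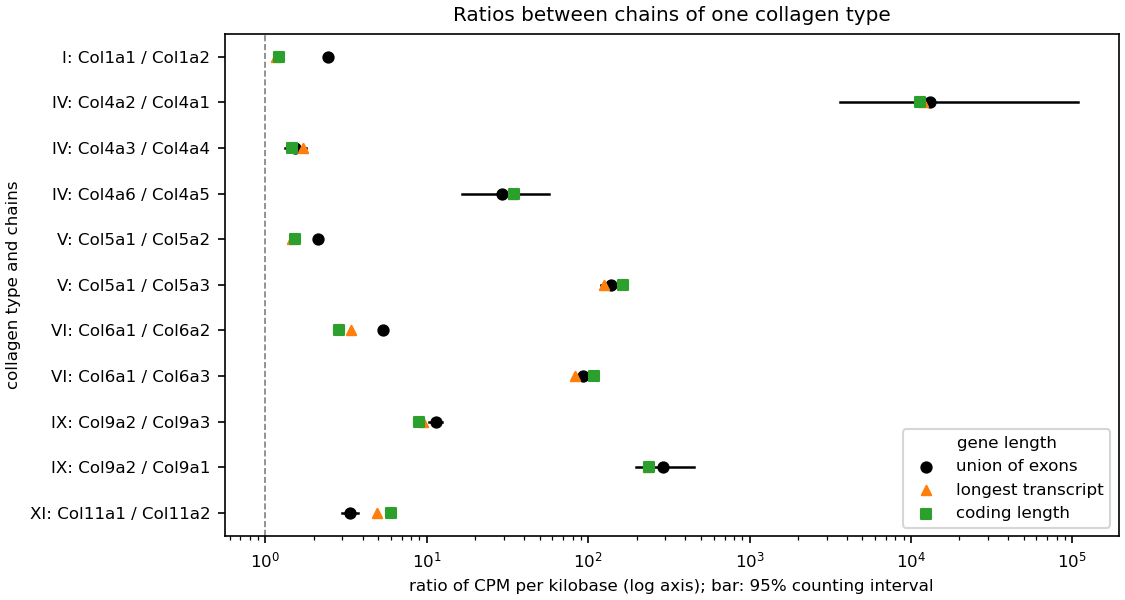
Ratio of CPM per kilobase between chains of the same collagen type (horizontal log axis) for the 11 pairs on the vertical axis, with 1 marker for each of 3 gene lengths and, on the black points, bars for the 95% counting interval. In each pair the chain higher with the union of exons stands first, which alone puts the black points right of 1 (dashed line). The markers of the other lengths also lie to the right of 1. Values run from Col1a1 to Col1a2 at 1.16 to 2.44 up to Col4a2 to Col4a1 at 13160 with the union of exons.

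The classes also differ in gene structure. The rule used symbols only, but the classes are themselves structural groups, so their run lengths are described and are not a result independent of the class. In the longest coding transcript of each gene, the longest Gly-X-Y run without a break had 216 to 344 triplets in fibrillar chains (median 338), against 39 to 66 in basement membrane chains, 37 to 87 in beaded filament chains, 32 to 113 in FACIT chains and 30 in the multiplexins. Exons of exactly 54 bases, which encode 6 triplets, made up 305 of 649 coding exons of the fibrillar genes, with 21 to 33 in each gene. They made up 12 of 296 in basement membrane genes, 17 of 217 in beaded filament genes and 109 of 432 in FACIT genes, and the short-chain genes had none. Levels within the fibrillar class ranged from -2.66 to 9.48 log2 CPM, although each of its chains had a run of at least 216 triplets.

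**Figure D4:**
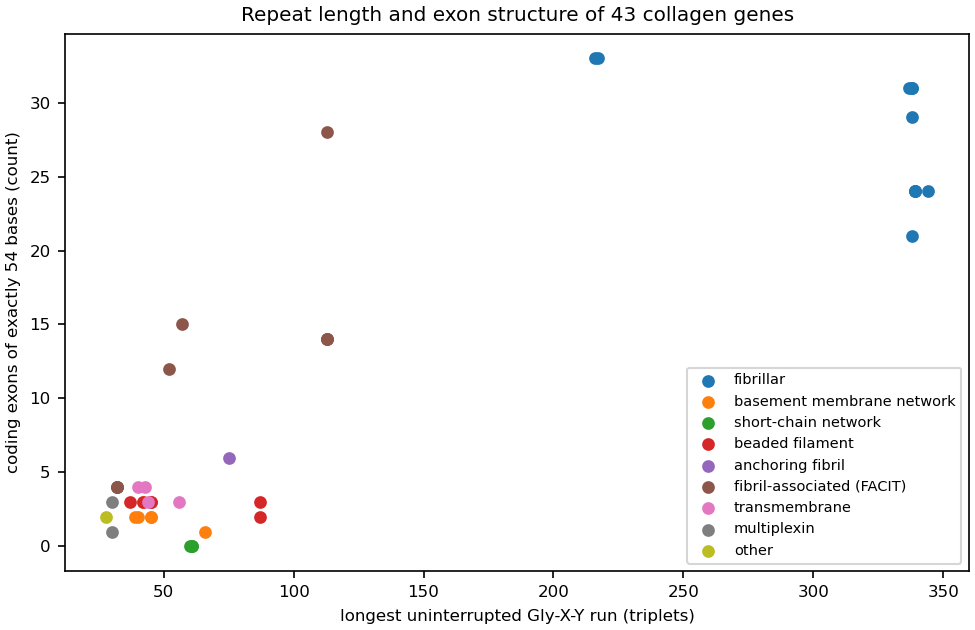
Number of coding exons of exactly 54 bases (vertical axis) against the longest uninterrupted Gly-X-Y run in triplets (horizontal axis), 1 point per collagen gene, coloured by class, from GENCODE M21. Fibrillar genes stand apart in run length, with 216 to 344 triplets, but not in the number of such exons (21 to 33), since the FACIT gene Col22a1 has 28.

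Genes that make, fold and cross-link collagen were measured in the same way, and 22 of 34 lay above 1 CPM. The highest were P4hb, a subunit of prolyl hydroxylase and also a general protein disulfide isomerase, at 10.91 log2 CPM, Ppib, a prolyl isomerase, at 7.72, and Sec23a, a coat protein of the vesicles that carry collagen out of the endoplasmic reticulum, at 7.42 log2 CPM. The other 12 lay at or under 1 CPM. Serpinh1, the collagen chaperone HSP47, had 24 reads (-1.72 log2 CPM). Fkbp10, Tll2, Adamts14 and Loxl4 were listed at the floor.

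Of 10 collagen receptors, 5 lay above 1 CPM. Itgb1, the shared beta subunit of collagen-binding integrins, was highest at 5.40 log2 CPM. Itga1, which pairs with it to bind collagen, lay at 4.19 and Mrc2, an uptake receptor, at 3.18 log2 CPM, and Itga10 and Lair1 were listed at the floor. Of 6 fibril-binding proteins, 5 lay above 1 CPM, led by the small proteoglycans Bgn (6.62), Lum (6.48) and Fmod (4.33 log2 CPM), with Sparc at the floor.

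Markers of the cells a fetal liver can hold were read for the identity of the tissue. Hepatoblast genes were among the highest rows, with Alb at 15.95, Afp at 15.73 and Apoa1 at 12.32 log2 CPM (5 of 7 above 1 CPM, Hnf4a at the floor). The fetal liver makes blood, and erythroid genes were likewise high. Hbb-bt (read from the row listed as Hbb-b1) lay at 14.60, Slc4a1 at 13.56 and Klf1 at 9.44 log2 CPM (4 of the 5 matched above 1 CPM). Serpina1a, a hepatoblast marker, had 5 reads and Alas2, an erythroid marker, 87 reads, both under 1 CPM.

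Of the stellate and mesenchymal markers, 8 of 10 lay above 1 CPM, led by Vim (8.34), Reln (5.96) and Acta2 (5.64 log2 CPM). Pdgfra lay at -1.17 log2 CPM (46 reads) and Pdgfrb at the floor. Of the endothelial markers, 4 of 7 did, led by Lyve1 (7.24), Cdh5 (7.17) and Kdr (6.15 log2 CPM), with Pecam1 and Tek at the floor. Cholangiocyte markers reached 2.82 (Krt7), 2.60 (Krt19) and 2.50 log2 CPM (Epcam), with 4 of 5 above 1 CPM. Upk3b, a mesothelial marker, lay at 4.41 log2 CPM, Wt1 at 0.18, Gpm6a at -1.26 and Msln at -2.55 with 3 reads (2 of 4 above 1 CPM).

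Markers of bone and epidermis were also read. None of 5 bone markers lay above 1 CPM, the highest being Bglap at -2.30, Ibsp at -2.34 and Sp7 at -2.44 log2 CPM. None of 5 epidermal markers did either, with Krt5 at -0.45, Krt15 at -0.79 and Krt14 at -1.28 log2 CPM and Trp63 at the floor. The part of each cell type in the collagen levels was not tested.

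**Figure D5:**
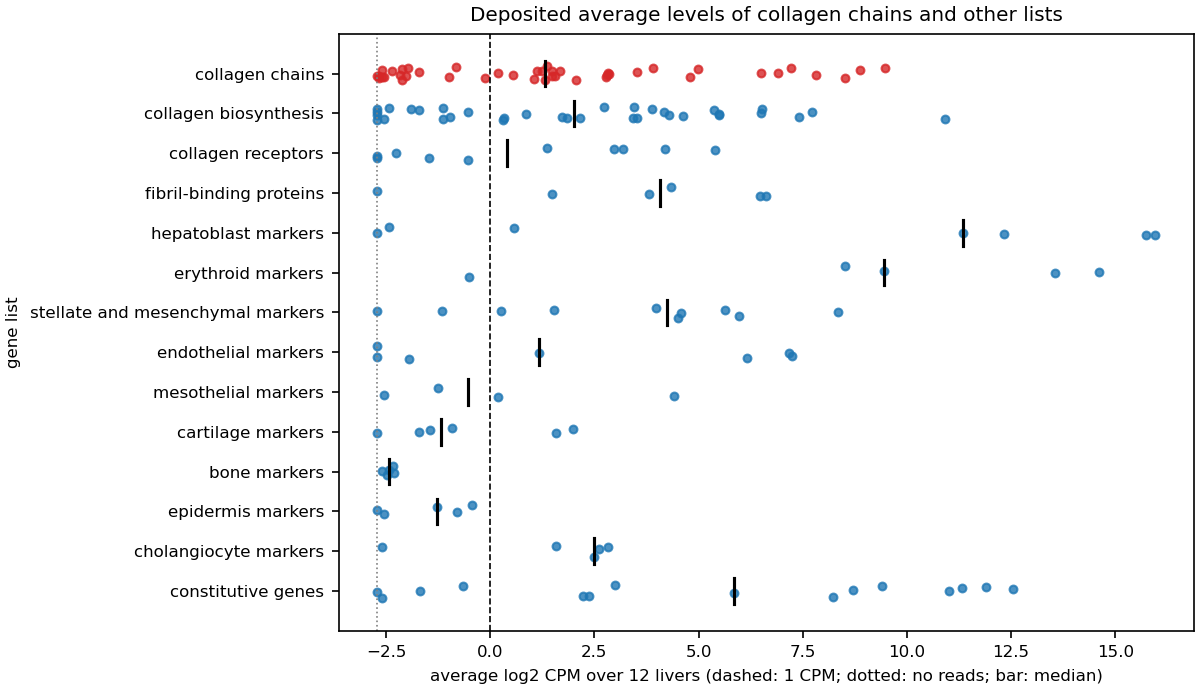
Average log2 CPM over the 12 livers (horizontal axis) of the genes of each list (vertical axis), 1 point per gene with the list's median as a bar, collagen chains in red, vertical scatter only to separate points. The 43 chains span -2.71 to 9.48 around a median of 1.31, and the 15 constitutive genes, chosen after their values were seen, also run from the floor (-2.71) to 12.54.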

How the data were processed

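RNA of 12 whole fetal livers was sequenced as TruSeq polyA libraries. The submitters' processing notes name cutadapt 1.2.1, Subread 1.3.6-p1 (the aligner), mm10 as the build, and edgeR, with which the authors compared the diets. The tool that counted reads per gene is not given in the sources used here. The authors deposited a table with an average log2 CPM per gene over all livers, which carries edgeR's prior count. It also holds their own diet comparison (fold changes, p-values and adjusted p-values with common and tagwise dispersions), which was not used. No column of single livers was used, so replicates could not be compared, no diet test was run and the depth of each liver is unknown. Both average columns were equal in all 30743 rows.

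From the average, the lowest value was taken as the floor of rows without reads. The steps of 1267 single-read rows (0.984 to 1.01 reads) gave a prior count of 2 and a mean effective library of 13129752 reads. Reads summed over livers were recovered from these, by steps tested on simulated data with a small spread between livers. The 95th percentile of the error was 1.17% there. Genes with many reads in only a few livers were not simulated. CPM above the floor was divided by kilobases of the union of exons in GENCODE M21 (GRCm38, the build of mm10). All 43 chains matched by symbol. Every chain was to be named with its level or read range, and of other lists the highest 3 and markers at the floor. Items that are not reported here were left out of the lists. Members and lists were chosen with earlier results of these data known. Promoter windows came from RefSeq (GRCm38). Other gene lengths, other CPM thresholds and levels without floor subtraction were tried. Python 3.11.15 with pandas 2.3.3, numpy 2.4.6, scipy 1.17.1 and matplotlib 3.10.9 was used.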

Additional observations from a re-analysis of the deposited data

How the results depend on the processing

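The number of chains above 1 CPM, 27, was 30 at 0.5 CPM, 25 at 2 CPM and 26 after subtraction of the floor. No ratio between partners changed its direction under any alternative. With the longest transcript as gene length, the ratios became 1.16 (Col1a1 to Col1a2), 1.47 (Col5a1 to Col5a2), 3.40 (Col6a1 to Col6a2), 83.4 (Col6a1 to Col6a3), 9.48 (Col9a2 to Col9a3) and 4.89 (Col11a1 to Col11a2), and the shares of the summed level 81.9% (fibrillar), 6.05% (basement membrane), 7.56% (beaded filament) and 4.51% (all other classes). With coding length the same ratios became 1.22, 1.52, 2.86, 108, 8.99 and 5.96, with Col5a1 to Col5a3 at 164, and the shares 81.2%, 5.74%, 7.78% and 5.28%. With the floor not subtracted, Col4a2 to Col4a1 became 1011, Col4a6 to Col4a5 10.3 and Col9a2 to Col9a1 149, with the fibrillar share at 76.5% and that of all other classes at 6.00%. Not divided by length, the shares were 84.1%, 6.84%, 5.89% and 3.23%. These shifts come from the lengths and from the floor's weight in genes with few reads. In all, 30 values were labelled as moved and 22 were not. The limit was taken from a counting interval for ratios and shares, and was a fixed fold change for the number of chains above 1 CPM. DESeq2, an unfiltered test and leaving out replicates were planned for counts of single livers and were not run. No paired analysis was possible because values of single livers were not used. The pooled average does not show the spread between livers or diets, and levels of a few reads are limited by depth.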
